A study of Homo sapiens with 2 samples.

Results

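The 10 genes described here code for hormones and neuropeptides of the gut, for the granins that are packed with them, and for the enzyme that starts serotonin synthesis. They were taken by symbol from the feature table of 36601 genes: CHGA, CHGB, MLN, GHRL, SST, NTS, GCG, PYY, TAC1 and TPH1. All 10 were present once in each library, and none was chosen by its measured values. Single-cell RNA sequencing had been applied to colon organoids made from the human iPS cell line 1383D6, an established line. The CNT library came from organoids without added cytokines, and the 3CK library from organoids treated during 8 days with IL-1β, TNF-α and IFN-γ, inflammatory cytokines used to build a culture model of ulcerative colitis. Both groups had gone through the same differentiation, with Activin A, then FGF2, and then a colonic medium. For that medium the labels list EGF, forskolin, PD98059, 5-aza-2'-deoxycytidine and A-83. The text of the labels breaks off there, so the rest of the medium is not known here. Each group was 1 library from 1 line, so differences below are between 2 libraries, no test was possible, and every interval is a 95% interval that covers counting error only.

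Enteroendocrine cells are scattered, rare cells of the intestinal epithelium that sense the gut lumen and release peptides or serotonin from dense-core granules. Chromogranins fill those granules, and the hormone differs by subtype: motilin and ghrelin from cells of the upper gut, somatostatin from D cells, neurotensin from N cells, peptide YY and proglucagon products from L cells, and serotonin, often with tachykinins, from enterochromaffin cells. In the adult colon, L cells, D cells and enterochromaffin cells are the usual types, whereas motilin and ghrelin are hormones of the stomach and upper small intestine. Subtypes are not strictly separate, and a single cell may hold transcripts of several hormones.

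Before the values, the upstream sequences of 5 members are shown, because these are the members whose levels or shared barcodes the results turn on. They come from RefSeq (GRCh38.p14), hold the 250 bases before the annotated start, and have 2 motifs in capitals. The first motif is TGACGTCA, the palindromic cAMP response element, and the second is TATAA on either strand (TTATA on the other), the core of a TATA box. The 2 do not overlap in these sequences. CHGA (chr14:92922900-92923149, plus strand) and SST (chr3:187670395-187670644, minus strand) are shown for the first motif.
CHGA: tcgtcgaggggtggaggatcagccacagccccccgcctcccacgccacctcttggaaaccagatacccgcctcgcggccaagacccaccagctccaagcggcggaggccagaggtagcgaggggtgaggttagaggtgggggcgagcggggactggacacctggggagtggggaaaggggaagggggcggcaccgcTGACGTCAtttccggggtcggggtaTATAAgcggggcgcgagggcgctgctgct
SST: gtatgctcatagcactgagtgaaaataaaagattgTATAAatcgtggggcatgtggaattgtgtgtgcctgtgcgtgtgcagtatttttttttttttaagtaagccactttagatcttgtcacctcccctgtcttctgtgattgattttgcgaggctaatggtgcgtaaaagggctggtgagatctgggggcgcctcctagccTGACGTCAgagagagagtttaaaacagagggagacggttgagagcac
MLN (chr6:33804004-33804253, minus strand) and GHRL (chr3:10292948-10293197, minus strand) are shown because their transcripts were found in the same barcodes, and NTS (chr12:85874045-85874294, plus strand) because it was the most widely detected member.
MLN: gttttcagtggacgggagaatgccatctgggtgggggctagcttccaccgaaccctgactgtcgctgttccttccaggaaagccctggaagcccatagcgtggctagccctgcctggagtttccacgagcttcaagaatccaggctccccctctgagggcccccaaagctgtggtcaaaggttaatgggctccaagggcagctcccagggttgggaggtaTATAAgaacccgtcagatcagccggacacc
GHRL: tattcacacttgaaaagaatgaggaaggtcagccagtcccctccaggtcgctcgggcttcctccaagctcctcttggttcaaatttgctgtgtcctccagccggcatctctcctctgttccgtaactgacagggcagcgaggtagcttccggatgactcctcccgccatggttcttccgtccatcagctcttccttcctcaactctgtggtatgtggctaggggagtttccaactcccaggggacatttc
NTS: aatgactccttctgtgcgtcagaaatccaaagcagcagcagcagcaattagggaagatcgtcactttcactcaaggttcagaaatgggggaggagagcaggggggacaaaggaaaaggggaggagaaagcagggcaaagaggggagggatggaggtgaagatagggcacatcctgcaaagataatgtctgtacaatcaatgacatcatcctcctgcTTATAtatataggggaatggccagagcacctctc
Of the 10 members, 9 matched the promoter table. Among those 9, TGACGTCA was found upstream of 2, CHGA at position -54 and SST at -47 counted from the start, and it was found in 1.65% of the 35116 promoters of that length. TATAA was found upstream of 7 of the 9 and in 18.9% of all promoters. For both motifs members were counted as genes, with a match in any promoter, whereas the background counts promoters, 35116 of 27305 genes. PYY had 2 promoters, and the promoter at chr17:44004446-44004695 lacked TATAA. In CHGA it lay at -29, in MLN at -30, in NTS at -34 and in SST at -215, and GHRL held neither motif. These are matches of letters, not measured binding sites. Forskolin, which raises cAMP in cells, was in the medium of both groups.

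Depth was high in both libraries. After filters, 2487 CNT barcodes with 101831571 unique molecular identifiers (UMIs, counted RNA molecules) and 1398 3CK barcodes with 91860414 UMIs were kept. Cells with at least 10000 UMIs, called deep cells below, numbered 1458 in CNT and 995 in 3CK, with medians of 63154.5 and 90346 UMIs. The 2 libraries shared no barcode. The labels call the cells colon epithelial cells, and EPCAM stood at 830 and 744 CPM (UMIs of a gene per 1e+06 UMIs of the library) and the hindgut factor CDX2 at 67.1 and 69.5 CPM. Other lineages were present as well. Hepatic transcripts such as TTR (49096 and 15303 CPM) were abundant, and the 6 mesenchymal markers summed to 2475 CPM in CNT and 604 CPM in 3CK. Deep cells were therefore also placed on a score of epithelial against mesenchymal markers. An epithelial-marker range held 941 CNT and 783 3CK cells, a collagen range 397 and 157, and 120 and 55 lay between. These are ranges of a score, not cell types.

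Some barcodes stand apart and are named before the results. In CNT, 23 pairs of deep barcodes had counts that agree within sampling noise, with a chi-square per degree of freedom over genes of 1.67 or less, with the next pair at 2.02 and a median of 5.57 between a barcode and its nearest partner. In 3CK there were 5 such pairs, at 1.17 or less, with the next pair at 3.25. The ratios of summed levels of the members over kept barcodes are also given with each pair counted once. Shares and counts of cells take the 2 barcodes of a pair as separate cells unless stated. Further, 2 CNT barcodes that were removed as probable doublets held most of the motilin transcripts of that library, so that the motilin and ghrelin results are given with and without them.

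Summed over kept barcodes, 6 of the 10 members reached 1 CPM in at least 1 library. MLN and GHRL were at least 2-fold higher in 3CK, against a background of 6.96% of the 17523 genes tested. CHGA and SST were at least 2-fold lower, against a background of 11.3%. NTS and PYY differed by less than 2-fold. CHGB, GCG, TAC1 and TPH1 stayed under 1 CPM in both libraries. The median log2 ratio of all genes tested was -0.05, and scaling by TMM factors moved it by less than 0.1. Which genes pass 2-fold depended on single barcodes, as the next paragraphs show.

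Most members were carried by very few barcodes. At least 50% of the UMIs lay in the top 3 barcodes for 7 of the 10 members in CNT and for 7 in 3CK (CHGA, MLN, GHRL, SST, GCG, PYY and TAC1 in each), against 0.81% and 1.4% of all genes tested. Those tested had at least 1 CPM in either library, as did 6 members, of which 5 passed in each library. GCG and TAC1 had few UMIs and were not among them. The median gene had 3.36% of its UMIs in its top 3 barcodes in CNT and 4.02% in 3CK. The most concentrated were MLN and TAC1 in 3CK, with 97.9% and 97.3% of their UMIs in 3 barcodes. NTS lay at the other end, with 9.61% in CNT and 15.0% in 3CK, and 54 and 27 barcodes were needed to hold 50% of its UMIs. TPH1 (12.5% and 14.3%) and CHGB (20.6% and 40.0%) were also spread, at few UMIs per barcode.

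**Figure D1:**
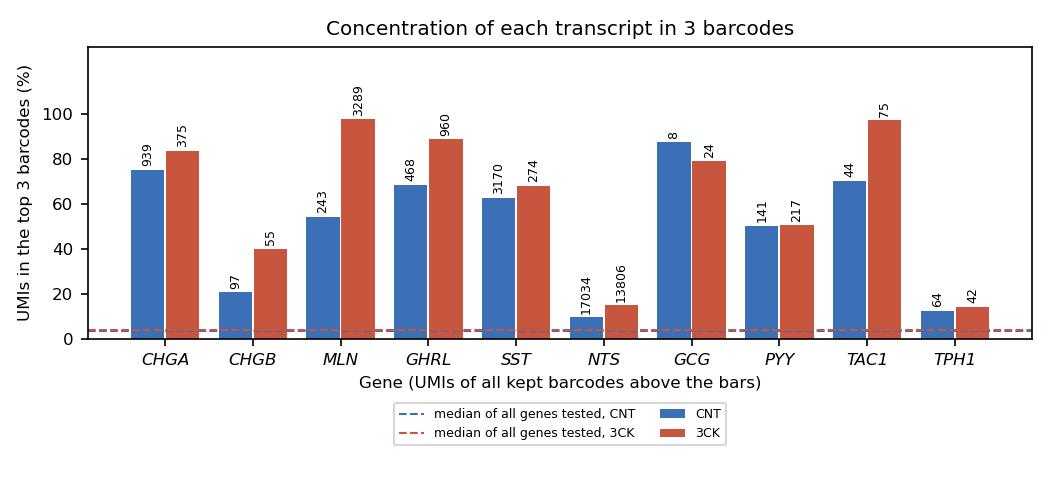
Percentage of each member's UMIs that lay in its 3 richest kept barcodes (y axis) for each gene (x axis), CNT in blue and 3CK in red, with the total UMIs printed above each bar and the median of all genes tested as dashed lines. The 7 most concentrated members stand at 50% or more in both libraries, with MLN in 3CK at 97.9%, and NTS is the lowest in CNT at 9.61%.

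The members were then read against 16 other genes of endocrine cells, none of them a member. These were transcription factors such as NEUROD1 and INSM1, granule proteins such as PCSK1, and others such as SCGN, a calcium sensor. Barcodes with UMIs of at least 5 of the 16, a boundary set after the data were seen, are called endocrine-profile barcodes here and are named by letters. CNT held 14 of them among all deposited barcodes and 3CK held 3. Of the 14, 10 were kept, 2 had been removed as probable doublets and 2 for a mitochondrial share above 20%. Among deep cells they made up 0.549% in CNT (8 of 1458, with an exact binomial interval from 0.237 to 1.08) and 0.302% in 3CK (3 of 995, from 0.0622 to 0.879). These intervals overlap. With near-identical pairs counted once, 6 remained in CNT and 3 in 3CK. The choice of at least 5 genes was a narrow one: at 4 genes the counts were 25 and 6.

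These few barcodes held 90.2% of the CHGA UMIs of the kept CNT barcodes and 83.7% in 3CK. For MLN the shares were 54.3% and 97.8%, and for GHRL 68.6% and 88.9%. For NTS they were 8.93% and 8.80%, whereas endocrine-profile barcodes were 0.549% of deep cells in CNT and 0.302% in 3CK. The richest NTS barcode of each library was among them, with 674 UMIs in CNT and 1213 in 3CK. SST differed between the libraries, with 28.4% of its CNT UMIs and 0% of its 3CK UMIs in such barcodes. Of these CNT UMIs, 465 and 405 were in CNT B and CNT C, a near-identical pair that is not merged in this share. None of the GCG or TPH1 UMIs lay in endocrine-profile barcodes. Nearly all TAC1 UMIs of 3CK (92%) came from 1 of them, and none of CNT.

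Hormone combinations differed from barcode to barcode. CNT D held 581 UMIs of CHGA with 371 of SCT, the secretin gene, and few of other hormones (14 of INS, the insulin gene, and 12 of NTS). CNT G and CNT H, which agree within sampling noise (chi-square per degree of freedom 1.06), held 674 and 589 UMIs of NTS and 63 of CHGA each. CNT B and CNT C, the other such pair (1.08), held 465 and 405 UMIs of SST with 112 and 89 of GHRL and 22 and 23 of MLN. Somatostatin, ghrelin and motilin transcripts were thus together in this pair, which counts as 1 cell when near-identical barcodes are merged. CNT F combined 87 UMIs of MLN, 120 of GHRL, 32 of PYY, 31 of CHGA and 77 of INS. INS was also found in CNT A (36 UMIs), CNT I (101), and CNT B, C, G and H (15, 13, 14 and 13). CNT E and CNT J passed on other endocrine genes and held at most 1 UMI of CHGA and none of MLN, GHRL, SST or PYY.

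In 3CK, barcode A held 1213 UMIs of NTS, 201 of CHGA and 69 of TAC1, with 183 of SCT. Barcode B held 836 UMIs of MLN, 623 of GHRL, 77 of CHGA and 30 of PYY, with 301 of INS and 104 of PPY, the pancreatic polypeptide gene. Barcode C held 2382 UMIs of MLN, 226 of GHRL and 36 of CHGA. The motilin and ghrelin barcodes of 3CK thus had 1 UMI of NTS each, and the neurotensin barcode had no MLN. Barcode B just reached the boundary, with 5 of the 16 genes and no UMI of NEUROD1.

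**Figure D2:**
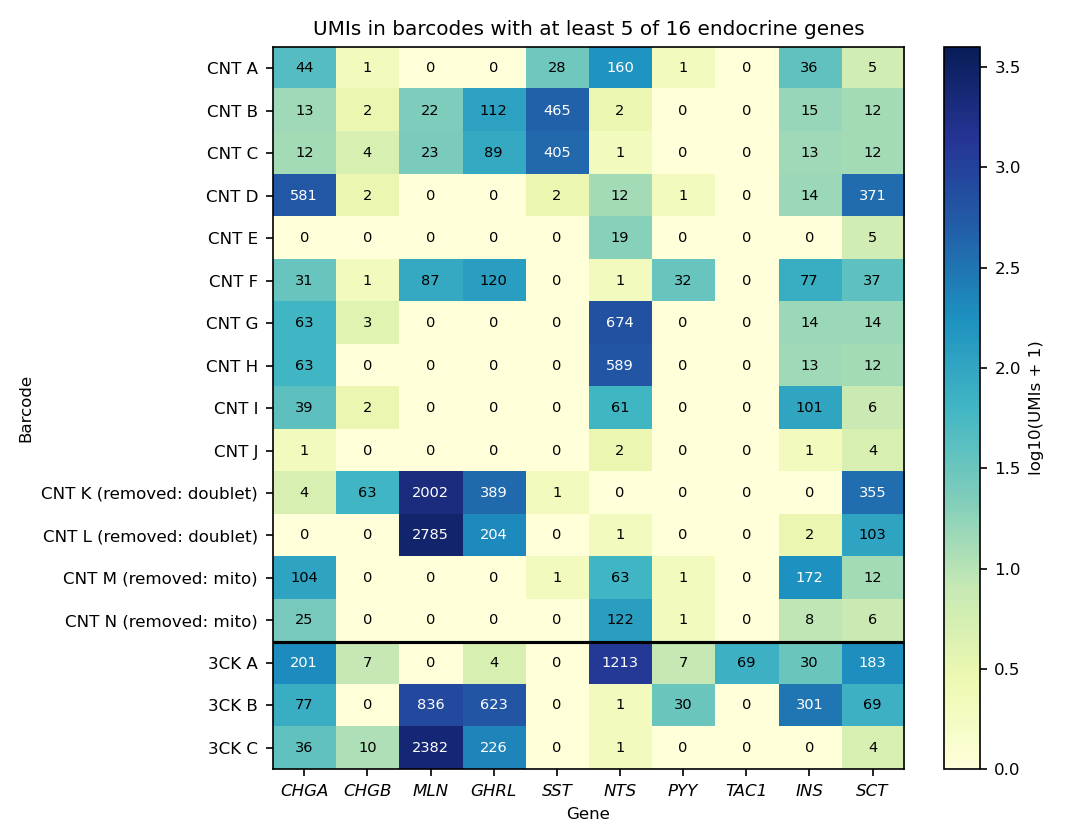
UMIs (printed, with colour on a log10 scale of UMIs + 1) of the members detected there and of INS and SCT (x axis) in each of the 14 CNT and 3 3CK barcodes with at least 5 of the 16 endocrine genes (y axis), CNT above the line and 3CK below it. CNT K and CNT L, removed as probable doublets, hold 2002 and 2785 UMIs of MLN, more than the 243 of all kept CNT barcodes together.

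CHGA (ENSG00000100604, chr14:92923150-92935285) encodes chromogranin A, the general granule protein of endocrine cells. CNT held 939 of its UMIs and 3CK 375, or 9.22 and 4.08 CPM. On the log2 scale 3CK over CNT was -1.18, with a lower bound of -1.35 and an upper bound still below -1. Of the CNT UMIs, 581 were in barcode D alone. Without the top barcode of each library, 358 and 174 UMIs remained, a log2 ratio of -0.89, under 2-fold. Without the top 3 it was -1.78, with 232 and 61 UMIs. With near-identical pairs counted once the log2 ratio was -1.05. Deep cells with at least 3 UMIs were 13 of 1458 in CNT and 8 of 995 in 3CK, 0.892% and 0.804%, a difference of -0.0876 percentage points (Newcombe interval -0.830 to 0.771). The share of such cells therefore differed by less than counting error, although the summed level was lower in 3CK.

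CHGB (ENSG00000089199, chr20:5911510-5925353) encodes chromogranin B, which is stored in the same granules. Its UMIs numbered 97 in CNT against 55 in 3CK, 0.953 and 0.599 CPM. At most 10 UMIs lay in any kept barcode of either library. The removed barcode CNT K held 63 more, and with probable doublets included the log2 ratio went from -0.67 (-1.17 to -0.18) to -1.41. In CNT, 11 of 397 collagen-range cells had a UMI at equal depth (2.77%, 1.39 to 4.90) against 5 of 941 epithelial-marker cells (0.531%, 0.173 to 1.24). In 3CK it was 2 of 157 (1.27%, 0.155 to 4.53) against 6 of 783 (0.766%, 0.282 to 1.66). The CNT intervals at equal depth do not overlap, whereas those of 3CK do. Without thinning, 3 of 397 against 2 of 941 CNT cells had at least 3 UMIs, and the intervals overlap there.

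Motilin and ghrelin are related peptides. Motilin drives contractions of the upper gut, and ghrelin stimulates appetite. MLN (ENSG00000096395, chr6:33794673-33804003, minus strand) had 243 UMIs in the kept CNT barcodes against 3289 in 3CK, 2.39 and 35.8 CPM. The log2 ratio was 3.91 (3.72 to 4.10). Nearly all 3CK UMIs lay in 2 barcodes, with 2382 and 836, and the next barcode held 3. In CNT the top barcodes held 87, 23 and 22. Barcodes CNT K and CNT L, removed as probable doublets, held 2002 and 2785 UMIs. With probable doublets included the totals were 5032 and 3290, and the log2 ratio turned to -0.47. Without the top 3 barcodes of each library, 111 and 68 UMIs remained, a log2 ratio of -0.56. The direction of the MLN difference was thus set by how 2 CNT barcodes were treated and by 2 barcodes of 3CK. CNT K carried 127 UMIs of COL1A1 beside 20 of EPCAM, and CNT L carried 2 and 23. Whether either barcode is a doublet was not tested further.

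GHRL (ENSG00000157017, chr3:10285666-10292947, minus strand) followed MLN. With 468 UMIs in CNT against 960 in 3CK, its level was 4.60 and 10.5 CPM (log2 ratio 1.19, 1.02 to 1.35). Of the 3CK UMIs, 623 were in barcode B and 226 in barcode C. With probable doublets included the totals were 1062 and 962, a log2 ratio of -0.0038, and without the top 3 barcodes of each library it was -0.31. With near-identical pairs counted once it was 1.53, because CNT B and CNT C were merged. The gene overlaps an antisense gene, GHRLOS, which was counted separately and had 60 and 89 UMIs, so reads of the 2 genes may not be fully separated. Deep cells with at least 3 UMIs of MLN were 5 in CNT and 4 in 3CK, and those of GHRL were 5 and 6. Of the 7 cells in each library with at least 3 UMIs of either gene, 3 had both. In CNT these counts take the near-identical barcodes CNT B and CNT C as separate cells.

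At equal depth, a single UMI of either gene was more frequent than these positive cells. With every deep cell thinned to 10000 UMIs, MLN was found in 1.59% of CNT epithelial-marker cells (0.895 to 2.62) and in 0.756% of collagen-range cells (0.156 to 2.19), and unthinned in 101 kept barcodes, 96 of them with only 1 or 2 UMIs. GHRL was found in 1.59% and 1.51%. In 3CK the corresponding shares were 1.40% and 0% for MLN, where 0 of 157 cells allows up to 1.91%, and 2.43% and 1.27% for GHRL. Free RNA in droplets can give such single UMIs, and in each library the intervals of the 2 ranges overlap. In CNT the median depth was 66569 UMIs for epithelial-marker cells, against 54285 for collagen-range cells. The single UMIs of MLN and GHRL are therefore not read as expression, and their positive cells are those with at least 3 UMIs. For other members, shares of cells with at least 1 UMI are also given below and are stated as such.

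**Figure D3:**
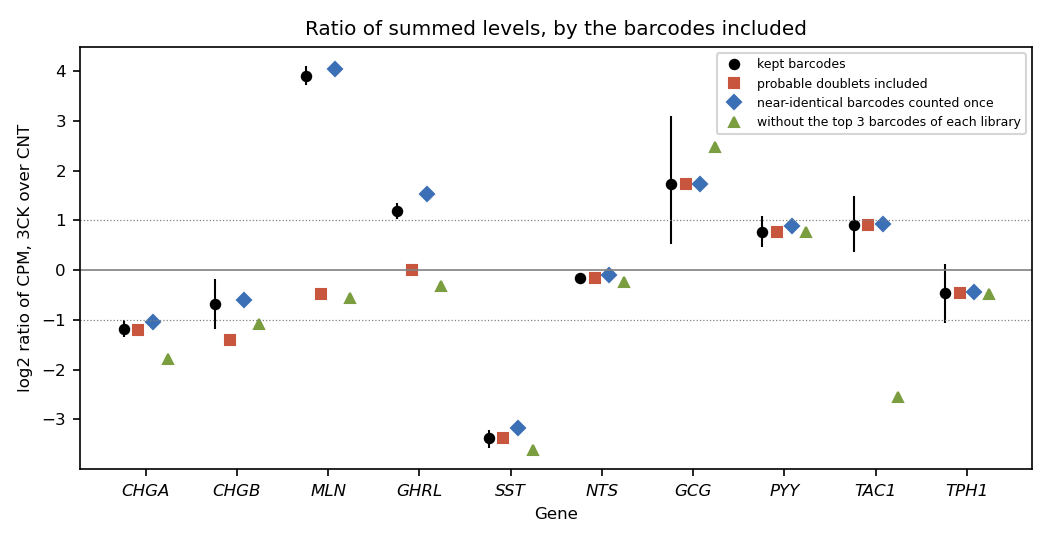
log2 ratio of summed CPM, 3CK over CNT (y axis), for each member (x axis), over kept barcodes (black, with the 95% counting interval), with probable doublets included (red), with near-identical barcodes counted once (blue) and without the top 3 barcodes of each library (green). Dotted lines mark 2-fold. MLN goes from 3.91 to -0.47 when probable doublets are included, whereas SST stays between -3.17 and -3.61.

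SST (ENSG00000157005, chr3:187668912-187670394, minus strand) encodes somatostatin, which inhibits the release of other hormones. Its 3170 UMIs in CNT stood against 274 in 3CK, 31.1 and 2.98 CPM. The log2 ratio was -3.38 (-3.57 to -3.21), which is 10.4-fold lower. The 4 richest CNT barcodes held 1120, 465, 405 and 247 UMIs, and the 4 richest of 3CK held 88, 56, 43 and 26. The top 4 of 3CK thus all lay under the top 4 of CNT. The log2 ratio was -3.17 with near-identical pairs counted once, -3.37 with probable doublets and -3.61 without the top 3 barcodes. Barcodes with at least 10 UMIs were 20 in CNT and 6 in 3CK.

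Most SST lay outside epithelial-marker cells. Of the 36 deep CNT cells with at least 3 UMIs, 27 were in the collagen range, and of the 10 in 3CK, 8 were. The collagen range had 111 CPM of SST in CNT and 14.6 in 3CK, against 1.71 and 0.799 CPM in the epithelial-marker range. The collagen-range SST cells had a median of 1 of the 16 endocrine genes in each library. Of the 27, 2 had at least 5, and these were the near-identical barcodes CNT B and CNT C. The gene pattern of most collagen-range SST cells was therefore not that of the endocrine-profile barcodes. In CNT 9 of the 27 also had at least 3 UMIs of NPY, the neuropeptide Y gene, and in 3CK 3 of the 8 did. NPY was common in that range, with at least 3 UMIs in 78 of 344 CNT and 23 of 142 3CK cells that had no SST. Of the enteric neuron markers, 5 of 7 were under 1 CPM in both libraries, and STMN2 and HAND2 were at 23.8 and 24.1 CPM in CNT and at 51.8 and 6.97 in 3CK, so whether these cells are neuronal was not tested.

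Within the collagen range, the share of cells with at least 3 UMIs of SST was 6.80% in CNT and 5.10% in 3CK, a difference of -1.71 percentage points (-5.54 to 3.38). The summed level in that range was lower by 2.93 on the log2 scale (interval -3.14 to -2.73 for the ratio). With cells thinned to 10000 UMIs, the share with at least 3 UMIs there was 3.02% in CNT and 1.27% in 3CK, a difference of -1.75 points (-4.12 to 1.75). Within the range the share of positive cells thus differed by less than counting error, with and without thinning. Over all deep cells the unthinned share was 2.47% in CNT and 1.01% in 3CK, a difference of -1.46 points (-2.50 to -0.387). Among the positive collagen-range cells the median was 13 UMIs of SST in CNT against 9.5 in 3CK. These cells differed in depth, with medians of 81447 UMIs of all genes in CNT and 130640 in 3CK. The highest cell had 1120 and 88. Collagen-range cells themselves were fewer, 397 of 1458 deep cells against 157 of 995, and 5 of the 6 mesenchymal markers were at least 2-fold lower in 3CK. The part of that shift in the SST difference was not tested beyond these values within the range.

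NTS (ENSG00000133636, chr12:85874295-85882992) encodes neurotensin, a peptide of N cells that acts on gut motility and secretion. Unlike the other members, it was found in a large share of cells. The sums were 17034 UMIs in CNT against 13806 in 3CK, 167 and 150 CPM. The log2 ratio was -0.15 (-0.19 to -0.12). It was -0.09 with near-identical pairs counted once and -0.07 with TMM factors, both closer to no difference than that interval. With cells thinned to 10000 UMIs, the share with a UMI was 33.1% in CNT (30.7 to 35.6) against 26.1% in 3CK (23.4 to 29.0), a difference of -7.00 percentage points (-10.6 to -3.32). With at least 3 UMIs at that same depth the shares were 13.0% and 11.4%. That difference of -1.61 points (-4.18 to 1.07) includes 0. Without thinning, 511 CNT and 324 3CK cells had at least 3 UMIs, a difference of -2.49 points (-6.26 to 1.34) at the greater depth of 3CK.

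Epithelial-marker cells had more NTS than collagen-range cells in both libraries. In the epithelial-marker range 39.4% of CNT and 30.5% of 3CK cells had a UMI at equal depth, against 17.6% and 7.01% in the collagen range. The intervals of the 2 ranges do not overlap in either library (36.3 to 42.6 against 14.0 to 21.7 in CNT, 27.3 to 33.9 against 3.55 to 12.2 in 3CK). Between the libraries, the level in epithelial-marker cells was 201 and 184 CPM (log2 ratio -0.13), and in collagen-range cells it was 50.4 and 10.5 CPM (log2 ratio -2.26, -2.51 to -2.02). The distribution was skewed. The median epithelial-marker cell had 0.301 NTS UMIs per 10000 in CNT and 0.164 in 3CK, and the 99th percentile cell had 30.4 and 25.8. The highest cell had 282 in CNT and 175 in 3CK.

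Most NTS cells had few of the endocrine genes. In CNT, the 422 epithelial-marker cells with at least 3 UMIs had a median of 1 of the 16 endocrine genes, as did the 276 cells of that range with no NTS. In 3CK the medians were 1 in 300 such cells and 0 in the 283 without NTS. Depth differed between these cells, with medians of 76155 UMIs against 53396 in CNT and 105223 against 73097 in 3CK. Across deep cells, the genes whose levels went with NTS most closely in both libraries were AGR2, a secretory protein chaperone (Pearson r 0.33 in CNT and 0.38 in 3CK), SPINK1, a trypsin inhibitor (0.32 and 0.34), and TTR (0.30 and 0.38). These were the top 3 of 15772 genes screened, over 1458 and 995 cells that share a library and differ in depth. The correlations are weak and are given as a description. EPCAM stood at 0.29 and 0.32 and COL1A1 at -0.22 and -0.18. NTS was the only member with enough positive cells for this comparison.

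**Figure D4:**
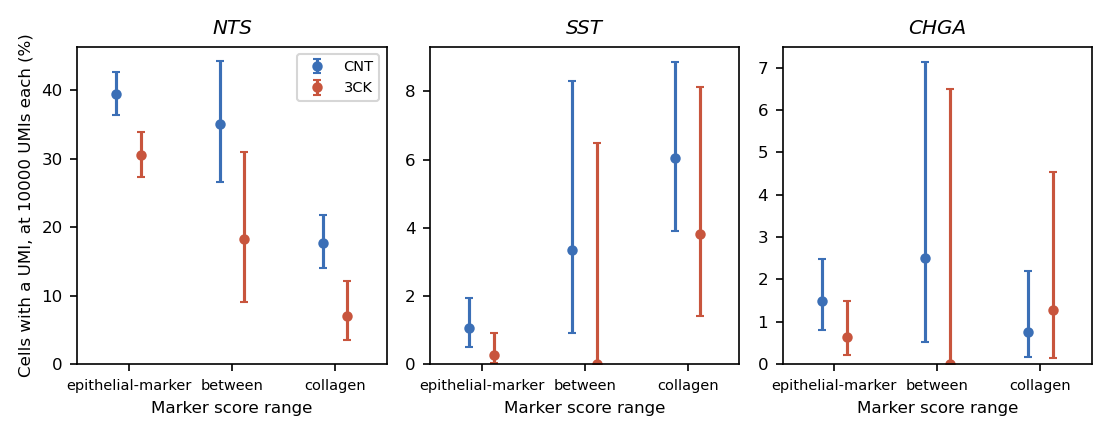
Percentage of cells with at least 1 UMI after each cell was thinned to 10000 UMIs (y axes, which differ between panels) for NTS, SST and CHGA by marker score range (x axes), CNT in blue and 3CK in red, with exact 95% binomial intervals. NTS is highest in the epithelial-marker range (39.4% in CNT and 30.5% in 3CK), and SST is highest in the collagen range (6.05% and 3.82%).

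PYY (ENSG00000131096, chr17:43952733-44004469, minus strand) encodes peptide YY, which reduces appetite and slows transit. Its sums were 141 UMIs in CNT against 217 in 3CK, 1.38 and 2.36 CPM (log2 ratio 0.77, 0.46 to 1.09). The ratio was 0.76 without the top 3 barcodes, 0.77 with probable doublets and 0.37 with each cell of equal weight. Deep cells with at least 3 UMIs were 7 of 1458 in CNT and 15 of 995 in 3CK, a difference of 1.03 percentage points (0.248 to 2.02) at the greater depth of 3CK. At equal depth with 1 UMI the shares were 0.892% and 1.41%, a difference of 0.515 (-0.331 to 1.53) that includes 0. In CNT 5 of the 7 cells were in the collagen range, and all 5 had at least 3 UMIs of NPY. In 3CK 8 of the 15 were in the epithelial-marker range, 4 between and 3 in the collagen range.

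GCG (ENSG00000115263, chr2:162142882-162152404, minus strand) encodes proglucagon, the source of glucagon-like peptides of L cells. Only 8 UMIs were counted in CNT against 24 in 3CK, with 1 and 2 deep cells at 3 UMIs or more. The log2 ratio was 1.73 (0.53 to 3.10). All 8 CNT UMIs and 23 of the 24 in 3CK lay in collagen-range cells, and 0 of 941 epithelial-marker cells of CNT had a UMI at equal depth, which allows a share of up to 0.319%. The richest 3CK barcode held 14 UMIs. INSL5, another peptide hormone of colonic L cells, had 0 and 1 UMIs. No cell had at least 3 UMIs of both GCG and PYY in either library.

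TAC1 (ENSG00000006128, chr7:97732084-97740472) encodes substance P and neurokinin A. CNT held 44 of its UMIs against 75 in 3CK, 0.432 and 0.816 CPM (log2 ratio 0.92, 0.36 to 1.49). Of the 3CK UMIs, 69 were in barcode A. Without the top barcode of each library, 26 and 6 UMIs remained and the log2 ratio turned to -1.97. The direction thus rested on 1 barcode. TPH1 (ENSG00000129167, chr11:18017555-18046269, minus strand) encodes tryptophan hydroxylase 1, which makes serotonin in enterochromaffin cells. It had 64 and 42 UMIs, 0.628 and 0.457 CPM, a log2 ratio of -0.46 (-1.06 to 0.12), and no barcode held more than 3. With 2 of 1458 and 0 of 995 deep cells at 3 UMIs (0 allows a share of up to 0.302%), cells with more than 1 or 2 UMIs of TPH1 were hardly detected. At equal depth, 5 of 397 CNT collagen-range cells had a UMI against 7 of 941 epithelial-marker cells.

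Cells with more than 1 member were few. At a minimum of 3 UMIs, 61 CNT cells (4.18%, 3.22 to 5.34) and 36 3CK cells (3.62%, 2.55 to 4.97) had any member other than NTS, a difference of -0.566 percentage points (-2.09 to 1.06). Of these, 10 and 7 had 2 or more, and 3 and 4 had 3 or more. Of the 45 pairs of members, 21 shared at least 1 cell in CNT and 23 in 3CK. CHGA was found with MLN in 3 cells and with GHRL in 3 and 4 cells. SST shared 3 of its 36 CNT cells with CHGA and none of its 10 in 3CK. The near-identical barcodes CNT B and CNT C stand as separate cells in these CNT counts. NTS was in 7 of the 13 CNT and 4 of the 8 3CK cells with CHGA, beside 35.0% and 32.6% of all deep cells.

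A wider set of cells was defined by at least 2 of the 16 endocrine genes after thinning to 10000 UMIs. In CNT it held 125 of 1458 deep cells (8.57%, 7.19 to 10.1), against 13 of 995 in 3CK (1.31%, 0.697 to 2.22). In CNT 113 of the 125 had SCGN and 97 had RFX6, and only 8 had NEUROD1. This set held 87.0% of the CHGA UMIs of deep CNT cells and 84.5% in 3CK, where it held 7.76% and 1.06% of all UMIs. For NTS the shares were 19.2% and 10.1%, and for SST 28.1% and 0%. Summed over kept barcodes, SCGN and RFX6 were themselves lower in 3CK, as given with the lists below.

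Genes around the hormones were taken as 7 lists and are given by counts at 2-fold, beside 6.96% higher and 11.3% lower among all genes tested. Of the 13 endocrine transcription factors, 3 reached 1 CPM and all 3 were lower in 3CK, with a median log2 ratio of -2.23. RFX6, which directs endocrine differentiation in gut and pancreas, was at 18.5 CPM in CNT and 1.39 in 3CK (-3.73, -4.00 to -3.47). ISL1, a LIM homeodomain factor of several endocrine subtypes, was at 2.68 and 1.31 CPM (-1.04). The RFX6 UMIs were not confined to a few cells, with 9.25% in the top 3 barcodes of CNT, unlike NEUROD1 with 72.9%. NEUROG3, which starts endocrine differentiation, had 1 and 0 UMIs.

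Among granule and prohormone processing genes, 13 of 14 were tested, 2 were higher, 3 were lower and the median was -0.68. CPE, the carboxypeptidase that trims prohormones, had the highest mean level (257 and 160 CPM, log2 ratio -0.68). SCG3, secretogranin III, had the largest ratio, at 0.658 and 6.22 CPM (3.24, 2.87 to 3.63), and SCGN, the calcium sensor secretagogin, the smallest, at 46.6 and 4.53 CPM (-3.36). Neither was concentrated as the hormones were, since the top 3 barcodes held 8.93% of SCG3 in 3CK and 3.12% of SCGN in CNT.

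For serotonin synthesis and handling, 9 of 10 genes were tested, none was higher, 3 were lower and the median was -0.39. PTS, an enzyme of tetrahydrobiopterin synthesis, was the most abundant (136 and 106 CPM, log2 ratio -0.36), GCH1, which starts that pathway, had the largest ratio (17.1 and 31.3 CPM, 0.88), and SLC18A1, a vesicular monoamine transporter, the smallest (1.01 and 0.218 CPM, -2.22). Of the other gut and islet hormones, 9 of 14 were tested, 2 were higher, 3 were lower and the median was -0.50. NMB, neuromedin B, was the most abundant (129 and 91.1 CPM, -0.50). PPY had the largest ratio (0.422 and 1.44 CPM, 1.77) and GAST, gastrin, the smallest (3.12 and 0.185 CPM, -4.08), and both were concentrated, with 83.3% of PPY in 3 barcodes of 3CK and 91.5% of GAST in 3 barcodes of CNT.

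Receptors for these peptides were mostly under 1 CPM, and of the 6 of 21 tested none was higher and 5 were lower, with a median of -1.77. NPY1R, a receptor for neuropeptide Y and peptide YY, was the most abundant (8.40 and 2.47 CPM, -1.76). SSTR2, a somatostatin receptor, had the largest ratio (2.38 and 2.84 CPM, 0.26, with an interval of -0.00 to 0.52) and GCGR, the glucagon receptor, the smallest (1.63 and 0.316 CPM, -2.37). Of the genes of peptide modification and breakdown, 5 of 6 were tested, none was higher and 2 were lower, with a median of -0.17. MBOAT4, which was not tested, had 10 UMIs in CNT and 18 in 3CK. DPP4, which inactivates glucagon-like peptides, was at 434 and 386 CPM (-0.17), IDE, which degrades insulin, at 19.0 and 20.8 (0.13), and ANPEP, a brush-border aminopeptidase, at 144 and 53.2 (-1.43).

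Of the nutrient and stretch sensors, 5 of 13 were tested, 2 were higher and 2 lower, with a median of -0.82. PIEZO2, a mechanosensitive channel, was the most abundant (58.4 and 21.8 CPM, -1.42). FFAR4, a receptor for long-chain fatty acids, had the largest ratio (1.30 and 5.27 CPM, 2.02) and SLC5A1, the intestinal glucose transporter, the smallest (1.24 and 0.414 CPM, -1.58).

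**Figure D5:**
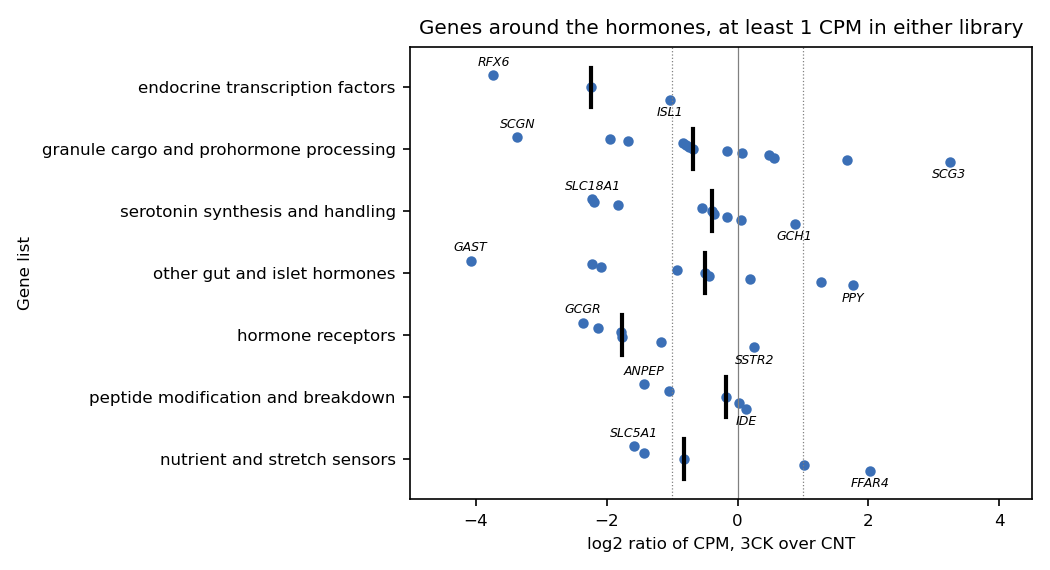
log2 ratio of summed CPM, 3CK over CNT (x axis), for the genes of 7 lists around the hormones (y axis), each point a gene with at least 1 CPM in either library and each black bar the list median, with the lowest and highest gene named. The transcription factors and receptors have the lowest medians (-2.23 and -1.77), and SCG3 is the highest gene at 3.24.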

How the data were processed

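Counts of UMIs per gene and barcode were deposited by the authors, not normalised, and were made with Cell Ranger 7.1.0 on GRCh38, per the submitters' processing notes. Barcodes with at least 500 genes and at most 20% mitochondrial UMIs were kept, and the highest Scrublet scores were removed as probable doublets at 0.8% per 1000 barcodes (scanpy 1.11.5). UMIs were summed per library and scaled to CPM. A sum of 0 was set to 3 UMIs, a share of 0 carries the limit of 3 counts of the total, and called means past 2-fold at 1 CPM or more in either library. Intervals are exact Poisson, exact binomial (Clopper-Pearson) or Newcombe, at 95%. The score was log2 of epithelial over mesenchymal marker UMIs per 10000 (each plus 1), with boundaries at 1 and -1. Positions of genes are from the GENCODE annotation of GRCh38. All 10 members are named. From each list the most abundant gene and those with the largest and smallest ratio are named, and other genes were named after their values were seen. Genes like a member needed 20 cells with 3 UMIs in each library and r of 0.3. Alternatives included TMM factors (edgeR 4.0.16). Ratio intervals were tested on simulated data. Thinning was checked on the 3CK cells, and only for a depth of 10000 UMIs in each thinned cell. The members and lists were chosen with earlier results of these data known.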

Additional observations from a re-analysis of the deposited data

Results flagged for a closer look

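MLN and GHRL had signal in data that the main sums leave out. The barcodes removed from CNT held 4795 UMIs of MLN, against 243 in all kept CNT barcodes, and 598 of GHRL, against 468. Nearly all of it lay in 2 barcodes scored as probable doublets, CNT K and CNT L.

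The same 2 genes had opposite directions in the 2 ends of the marker score. In the epithelial-marker range the log2 ratio of 3CK over CNT was 4.20 for MLN (3.98 to 4.44) and 1.89 for GHRL (1.69 to 2.11). In the collagen range it was -2.06 for MLN (-3.34 to -0.99) and -2.72 for GHRL (-3.48 to -2.04). The difference between the ranges was not tested, since each range is part of 1 library per group. In the collagen range the near-identical barcodes CNT B and CNT C held 22 and 23 of the 58 CNT UMIs of MLN and 112 and 89 of the 217 of GHRL. Without this pair the values in that range turned to 0.0897 for MLN (-1.39 to 1.47, from 13 and 8 UMIs) and 1.04 for GHRL (0.00 to 2.09, from 16 and 19 UMIs), and with each near-identical pair counted once they were -1.34 and -1.83. The directions in the collagen range thus rested on the pair. Those in the epithelial-marker range rested on few barcodes too. There 3CK B and 3CK C held 836 and 2382 of the 3278 3CK UMIs of MLN, and 623 and 226 of the 936 of GHRL. The removed barcode CNT L, with 2785 UMIs of MLN and 204 of GHRL, was also in that range and is not in these values.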

How the results depend on the processing

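With no cell filter the log2 ratio of MLN was -0.46. With probable doublets included it was -0.47, and that of GHRL was -0.0038. Without the top 3 barcodes of each library the values were -0.56 and -0.31. In the collagen range, MLN and GHRL were at 0.0897 and 1.04 without the near-identical pair CNT B and CNT C. Members past 2-fold higher were 0 under each of these settings, against 2, and 1 without the top barcode. Members past 2-fold lower were 1 without the top barcode, 1 at a minimum of 10 CPM and 1 with each cell of equal weight. The median of the endocrine transcription factors was -2.91 with no cell filter, -2.86 with probable doublets and -3.73 at 10 CPM, where 1 gene was left, and that of the nutrient and stretch sensors was -1.42 at 10 CPM, also 1 gene. Member pairs in a shared cell numbered 38 in CNT and 37 in 3CK at 1 UMI and 13 in each at 10 UMIs. Cells in the endocrine range numbered 536 and 163 at 1 gene and 23 and 3 at 3 genes, and deep barcodes with an endocrine profile 25 and 6 at 4 genes. The log2 ratio of TAC1 was -2.55 without the top 3 barcodes and -1.97 without the top barcode, and that of CHGA was -0.98 with each cell of equal weight and -1.38 with no cell filter. The log2 ratios of summed levels of SST, NTS, CHGA and PYY kept their direction under every setting tried. Shares of cells did not all do so. For PYY the share with a UMI was 0.518% in CNT and 0.470% in 3CK when thinned to 5000 UMIs, a difference of -0.0478 points (-0.617 to 0.628). Counting near-identical barcodes once, leaving out the top barcode or that pair, and the endocrine profile were chosen after seeing the data. The causes of these shifts were not tested beyond the barcodes named. No paired analysis was possible because each group is 1 library.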
